A study of Mus musculus with 12 samples.

Results

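Glycolytic isozymes are enzymes that run the same step of glycolysis but are encoded by separate genes and used in different proportions by different organs. The 9 genes described here were chosen by their symbols: the hexokinases Hk1, Hk2 and Hk3, the phosphofructokinases Pfkl, Pfkm and Pfkp, the liver and red cell pyruvate kinase Pklr, and the lactate dehydrogenases Ldha and Ldhb. All 9 were found among the 22276 gene symbols of the expression table, and each had a library with 1 FPKM or more (FPKM is fragments per kilobase of transcript, scaled to the fragments mapped). RNA was sequenced from WAT (white adipose tissue), BAT (brown adipose tissue), liver and quadriceps muscle of male C57BL/6J mice at 17 wk of age. The NCD-veh group ate a normal chow diet and received vehicle (hydroxypropyl cyclodextrin). The HFD-veh group ate a high-fat diet from 8 wk of age and received the same vehicle. The HFD-ncls group ate the high-fat diet and received narciclasine (ncls), an alkaloid of Narcissus plants, from 10 wk of age, as weekly oral doses. Vehicle was also given from 10 wk. Each of the 12 combinations of organ and group is 1 library, and the number of mice behind a library is not given in the sources used here. There are therefore no replicates, and every comparison below describes these libraries with no test. Values given as triplets run from NCD-veh through HFD-veh to HFD-ncls.

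Hexokinase phosphorylates glucose on entry into the cell, phosphofructokinase commits the sugar to glycolysis, pyruvate kinase makes pyruvate at the last step, and lactate dehydrogenase converts pyruvate and lactate into each other. Hk2 is the insulin-regulated hexokinase of muscle and fat, Hk1 is the broadly expressed form, and Hk3 is known mainly from myeloid blood cells. Pfkm is the muscle subunit, Pfkl the liver subunit and Pfkp the platelet subunit of a tetramer in which subunits can mix. The M subunit encoded by Ldha predominates in glycolytic muscle and the H subunit encoded by Ldhb in heart and other oxidative tissue.

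The libraries had 9130 to 12052 genes at 1 FPKM or more. The steps between low FPKM values placed each library at roughly 20100000 to 28400000 fragments, an approximate figure on which no interval rests. Summed marker levels were highest in BAT for brown adipocyte markers (2321, 1926 and 2038 FPKM) and in muscle for skeletal muscle markers. They were highest in liver for liver markers and in WAT for adipocyte markers. Among the 6 brown adipocyte markers, Ucp1, the uncoupling protein of brown fat, was at 740 to 770 FPKM in BAT and at most 3.92 elsewhere. Elovl3, however, was higher in liver (41.3 to 154 FPKM) than in BAT (6.52 to 18.6 FPKM). Ppargc1a was at 2.42 to 3.23 FPKM in BAT and 2.98 to 3.80 in muscle. Ckm, the muscle creatine kinase, was at 15744 to 16456 FPKM in muscle. Several libraries also held markers of another organ. The median of 13 skeletal muscle markers in BAT was 1.83%, 0.749% and 0.112% of the level in muscle. Liver markers (median of 14) reached 0.609% of their level in liver in muscle of HFD-veh mice and 0.237% in WAT of HFD-ncls mice, and muscle markers stood at 0.0631% in HFD-veh liver. Where these markers moved a member's value, the value with the muscle or liver level taken off at the marker median is given beside it. In whole organs, fewer cells of a type and less RNA per cell cannot be told apart.

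In mm9 coordinates the hexokinase genes lie on chromosome 10 (Hk1, 61731603 to 61842656), chromosome 6 (Hk2, 82675019 to 82724448) and chromosome 13 (Hk3, 55107346 to 55122746), all on the minus strand. Pfkl is on chromosome 10 (77449692 to 77472828, minus strand), Pfkm on chromosome 15 (97923020 to 97962878, plus strand) and Pfkp on chromosome 13 (6579014 to 6648023, minus strand). Ldha is on chromosome 7 (54096845 to 54110997, plus strand) and Ldhb on chromosome 6 (142438769 to 142456477, minus strand). All are annotated as protein-coding.

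Promoter sequences in the RefSeq table were matched for all 9 genes, with 15 start sites between them, and each was found once in the mm9 genome by exact match. The 250 bases before 2 of these starts are printed. They are the starts on the plus strand whose promoter held a carbohydrate response element or ACGTG at 3 places or more. The 2 were thus picked by the motifs marked in them, and the shares of all promoters given below are for scale only. Pklr (chromosome 3, gene 88940064 to 88950706 on the plus strand) has an upstream start used in red cell precursors and a downstream start used in liver. Capitals in the first sequence, chr3:88940295-88940544 before the downstream start, mark 2 copies of the half-site of the carbohydrate response element, CACGNG and its reverse complement CNCGTG, 5 bases apart. This element is the binding site of ChREBP, a glucose-sensing factor encoded by Mlxipl. Capitals in the second, chr7:54100924-54101173 before the upstream of 2 listed Ldha starts, mark ACGTG on either strand, the core of the hypoxia response element bound by HIF-1.

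Pklr: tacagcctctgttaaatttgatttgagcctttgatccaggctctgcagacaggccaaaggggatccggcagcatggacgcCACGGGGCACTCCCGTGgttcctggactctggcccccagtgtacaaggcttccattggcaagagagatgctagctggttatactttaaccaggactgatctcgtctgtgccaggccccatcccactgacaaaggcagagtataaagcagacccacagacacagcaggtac

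Ldha: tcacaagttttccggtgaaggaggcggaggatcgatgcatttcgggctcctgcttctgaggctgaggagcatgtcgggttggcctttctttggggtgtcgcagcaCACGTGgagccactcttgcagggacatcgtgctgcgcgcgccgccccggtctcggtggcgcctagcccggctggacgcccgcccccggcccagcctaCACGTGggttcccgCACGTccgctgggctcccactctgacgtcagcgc

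The carbohydrate response element was found at bases -170 to -154 before the downstream Pklr start, on mm9 plus strand, and in none of the other 14 member promoters. Among all 32851 promoters of the table, taken with 50 more bases after the start, 15 held it (0.0457%). ACGTG occurred at 3 separate places before the upstream Ldha start, counting CACGTG, which reads the same on both strands, once. It was in at least 1 promoter of Hk1, Hk2, Hk3, Pfkm and Ldha. At least 1 ACGTG was present in 19.6% of all promoters and 3 or more places in 0.414%. These are matches of letters only, and the deposited values do not separate the starts of a gene.

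The summed level of Hk1, Hk2 and Hk3 was almost wholly Hk2 in muscle, mainly Hk2 in BAT, divided among all 3 genes in WAT, and in liver all 3 genes were under 1 FPKM. Hk2 was at 51.1, 47.7 and 41.4 FPKM in muscle. It was at 23.5, 21.7 and 22.1 FPKM in BAT, and at 21.0, 17.4 and 20.9 FPKM in WAT. In liver Hk2 was at 0.228, 0.200 and 0.0811 FPKM, about 30.8, 25.8 and 10.9 fragments. The muscle libraries were above all others and the liver libraries below all others. BAT and WAT did not overlap, but the lowest BAT library was only 1.04 times the highest WAT library. The middle library of muscle was 239 times that of liver.

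Hk1 was highest in the fat depots. Its FPKM was 9.33, 10.6 and 12.1 in WAT, 3.67, 6.45 and 5.31 in BAT, 0.756, 0.922 and 1.25 in muscle, and 0.341, 0.475 and 0.673 in liver. In FPKM as deposited, the order WAT, BAT, muscle and liver held for every library, with the closest neighbours, muscle and liver, 1.12-fold apart. With each library rescaled by its median ratio, WAT and BAT overlapped, and their middle libraries were at 7.04 and 6.07. Within WAT, liver and muscle the FPKM was lowest in NCD-veh and highest in HFD-ncls, with the highest library 1.30 to 1.97 times the lowest. None of these 3 gaps reached 2-fold.

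Hk3 was the hexokinase that varied most between groups of 1 organ. In WAT it was at 1.67, 6.33 and 9.12 FPKM, so the highest library was 5.45 times the lowest. In liver it was at 0.697, 0.563 and 0.451 FPKM, in BAT at 0.156, 0.422 and 0.191, and in muscle at 0.0684, 0.0260 and 0.0265, the last 2 resting on about 2.23 fragments each. The WAT libraries were above all others, and liver and BAT were only 1.07-fold apart at their nearest libraries.

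In shares of the summed FPKM of the 3 genes, Hk2 made up 98.4%, 98.1% and 97.01% of muscle hexokinase. It made up 86.0%, 76.0% and 80.1% in BAT and 65.6%, 50.8% and 49.6% in WAT. The Hk3 share of WAT was 5.24%, 18.4% and 21.6%, while the Hk1 share stayed between 28.8% and 30.8%. In liver the sum was only 1.27, 1.24 and 1.20 FPKM, against 27.3 to 51.9 FPKM in the other organs. Hk3 led that liver sum in NCD-veh and HFD-veh (55.0% and 45.5%) and Hk1 led in HFD-ncls (55.9%). The sums and shares cover only these 3 genes.

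Phosphofructokinase was nearly pure Pfkm in muscle, mostly Pfkl in BAT, a mixture of Pfkl and Pfkm in liver, and a mixture of Pfkl and Pfkp in WAT. Pfkm was at 1239.9, 1019 and 1121 FPKM in muscle, the highest level of any member in any organ. It was at 32.2, 22.9 and 16.6 FPKM in BAT, 6.17, 4.15 and 5.70 in WAT, and 4.93, 4.28 and 4.64 in liver. Every muscle library was at least 31.6 times every BAT library, and WAT and liver overlapped. Pfkm made up 99.8% to 99.9% of muscle phosphofructokinase.

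Pfkl was highest in BAT, at 63.1, 78.4 and 60.7 FPKM. It was at 17.4, 21.1 and 22.7 FPKM in WAT, 7.14, 6.62 and 8.15 in liver, and 1.10, 1.58 and 1.08 in muscle. Neighbouring organs in this order were separated by at least 2.13-fold between their nearest libraries. Pfkl made up 61.8%, 71.6% and 71.8% of the BAT sum. With the muscle level taken off at the marker median the BAT shares were 79.4%, 76.96% and 72.9%. The order of the groups depended on the share taken off, as did the Pfkm value of NCD-veh BAT described below, so it is not settled here. Pfkl made up 57.6%, 59.3% and 61.5% of the liver sum (57.6%, 62.9% and 61.6% with the muscle level taken off), and 44.0%, 43.3% and 44.5% of the WAT sum.

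Pfkp was highest in WAT. Its level was 16.0, 23.5 and 22.6 FPKM in WAT and 6.81, 8.20 and 7.31 FPKM in BAT. It was under 1 FPKM in muscle (0.588, 0.574 and 0.584) and in liver (0.318, 0.262 and 0.452). The lowest WAT library was 1.94 times the highest BAT library in FPKM as deposited. With each library rescaled by its median ratio the organs were nearer, with middle libraries at 14.7 in WAT and 8.36 in BAT. Pfkp supplied 40.4%, 48.2% and 44.3% of the WAT sum, so Pfkp led in HFD-veh WAT while Pfkl led in the other 2 WAT libraries. Its share was 6.67% to 8.64% in BAT and 2.35% to 3.41% in liver.

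**Figure D1:**
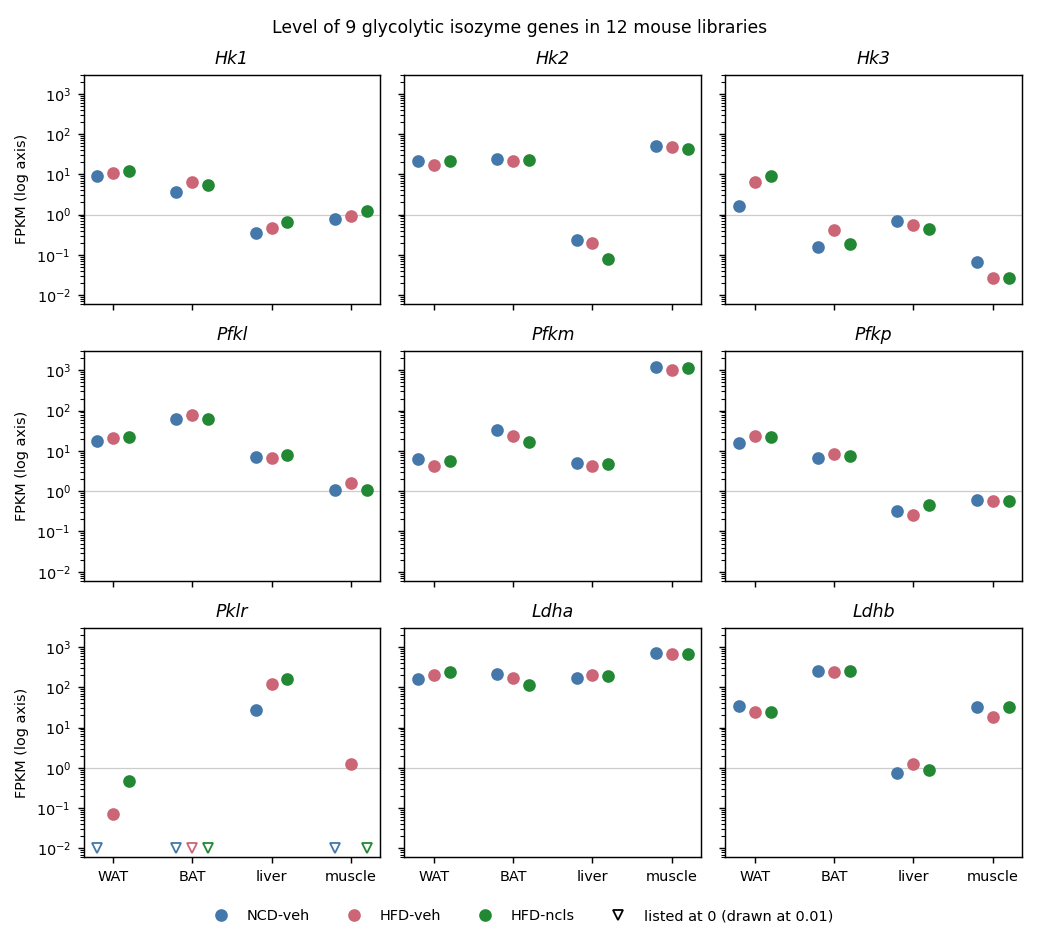
FPKM (log axis) of the 9 genes in the 12 libraries, with 1 point per library coloured by group, open triangles for values listed at 0, and a grey line at an FPKM of 1. Pfkm and Hk2 are highest in muscle, Pfkl and Ldhb in BAT, Hk1, Hk3 and Pfkp in WAT, and Pklr in liver, where it runs from 27.4 to 159 FPKM.

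Pklr was a liver gene in these libraries, and within liver it was the member with the widest spread between groups. It was at 27.4, 119 and 159 FPKM in liver. It was listed at 0 in all 3 BAT libraries, in NCD-veh WAT and in NCD-veh and HFD-ncls muscle. The 3 remaining values were 0.0733 FPKM in HFD-veh WAT, 0.483 in HFD-ncls WAT and 1.23 in HFD-veh muscle. Every liver library was at least 20.7 times every muscle library on FPKM + 0.1, and the highest liver library was 5.81 times the lowest.

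The Pklr values outside liver were in the libraries with liver markers. In muscle of HFD-veh mice Pklr stood at 1.03% of its level in their liver, beside a median of 0.609% (quartiles 0.522% and 0.732%) for the 14 liver markers. In HFD-ncls WAT it was at 0.304%, beside a marker median of 0.237%. All 14 liver markers with values everywhere were above 0 in these 2 libraries, and their summed level in muscle was 20.6, 361 and 13.2 FPKM. In WAT the sum was 2521, 2178 and 2798 FPKM, of which Hp and Cyp2e1, which fat also expresses, made up most. With the liver level taken off at the marker median, Pklr was at 0.503 FPKM in that muscle library and 0.106 FPKM in that WAT library. How much of Pklr in these libraries came with liver RNA was not tested beyond this.

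The other pyruvate kinase gene, Pkm, showed the reverse layout. It was at 1448, 1277 and 1202 FPKM in muscle, 418, 490 and 331 in BAT, 109, 146 and 151 in WAT, and 3.23, 4.43 and 4.82 in liver. Pklr was 89.5%, 96.4% and 97.1% of the summed Pklr and Pkm of liver, and at most 0.319% of that sum in any other library.

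Lactate dehydrogenase was Ldha in liver, muscle and WAT, and in BAT Ldhb was the higher gene. Ldha was at 697, 663 and 660.5 FPKM in muscle. It was at 165, 206 and 234 FPKM in WAT, 166, 196 and 191 in liver, and 215, 168 and 111 in BAT. Muscle was above every other library by at least 2.83-fold, and the WAT, liver and BAT libraries overlapped. From the highest to the lowest organ, the middle library of Ldha spanned 3.96-fold, the narrowest span of the 8 members with a middle value above 0 in every organ. The other 7 spanned 22.3-fold to 284-fold. Ldha has processed copies in the mouse genome, and how fragments that fit several places were assigned is not given in the sources used here, so its level carries that uncertainty.

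Ldhb was at 259, 237 and 256 FPKM in BAT, the steadiest of the members there together with Hk2. It was at 31.6, 18.7 and 32.2 FPKM in muscle, 34.99, 24.97 and 24.3 in WAT, and 0.755, 1.28 and 0.900 in liver, where about 21.2 to 34.3 fragments lay behind each value. Every BAT library was at least 7.36 times every muscle library, and muscle and WAT overlapped. Ldhb made up 54.6%, 58.6% and 69.8% of lactate dehydrogenase in BAT, 17.5%, 10.8% and 9.42% in WAT, 4.33%, 2.75% and 4.66% in muscle, and 0.452%, 0.647% and 0.469% in liver. The share of Ldhb in BAT was highest in HFD-ncls, with Ldhb itself within 1.09-fold over the 3 libraries and Ldha 1.94-fold lower in HFD-ncls than in NCD-veh.

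**Figure D2:**
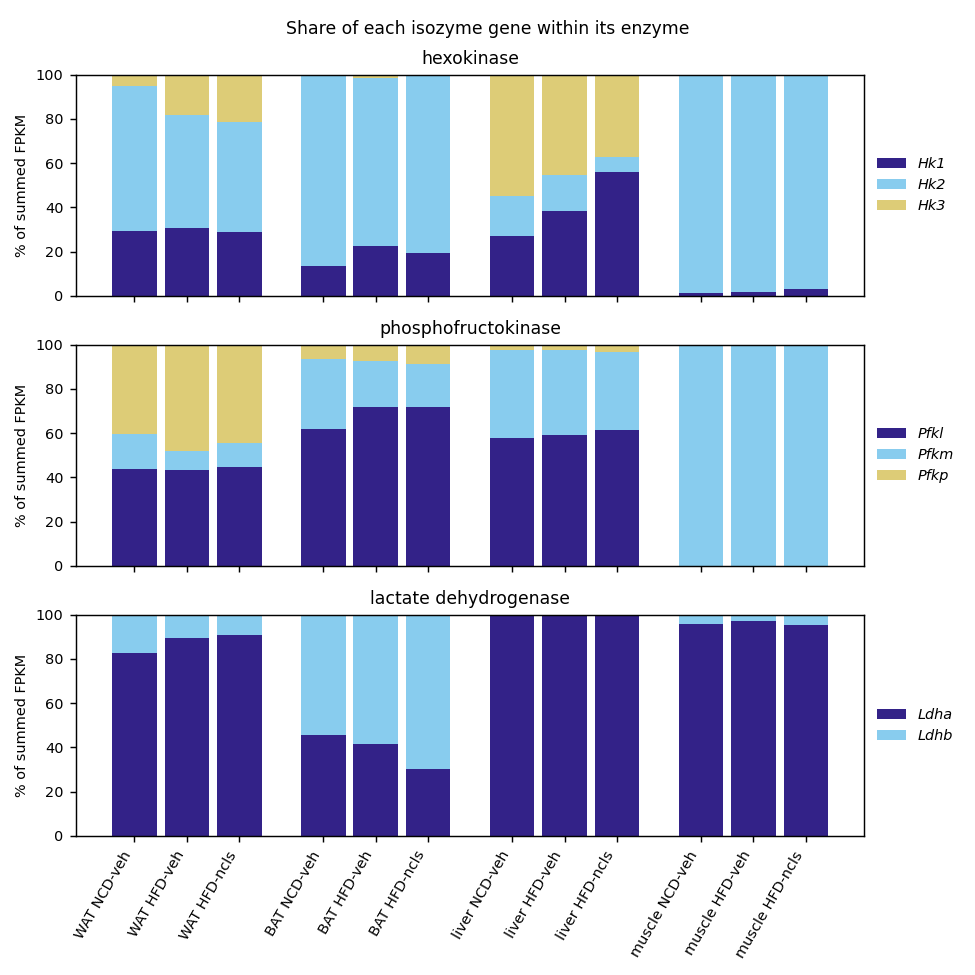
Share of each gene in the summed FPKM of its enzyme (percent, stacked bars from 0 to 100), with 1 bar per library grouped by organ. Pfkm fills the phosphofructokinase bars of muscle (99.8% to 99.9%), Ldhb takes 54.6% to 69.8% of the lactate dehydrogenase bars of BAT, and Hk3 widens from 5.24% to 21.6% across the WAT bars.

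A pair of organs was called apart for a gene when every library of one was over 2-fold above every library of the other on FPKM + 0.1. By this measure 4 of 8 members were apart between WAT and BAT, against 40.2% of all genes (those at 1 FPKM or more in any of the 6 libraries). For WAT and liver it was 7 of 9 members (48.6% of all genes), for WAT and muscle 6 of 9 (54.1%), for BAT and liver 7 of 8 (32.8%), for BAT and muscle 6 of 8 (35.8%), and for liver and muscle 6 of 7 (43.8%). In all, 36 of 49 pairs of a member and 2 organs were apart. These genes are textbook organ isozymes, so a count above the background is a description of that choice. Ldha was apart in the 3 pairs that include muscle and in no other. Rescaling each library by its median ratio lowered WAT by 0.75 against BAT, 0.76 against liver and 0.85 against muscle (log2, median of all genes). After it, Hk3 and Pfkl were no longer apart between WAT and liver, Hk2 was apart between WAT and muscle, and the order of the middle libraries turned for Ldha in WAT against BAT and liver and for Pfkm in WAT against liver.

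The diet comparison was HFD-veh against NCD-veh within each organ, and the narciclasine comparison was HFD-ncls against HFD-veh. With 1 library on each side, diet or narciclasine cannot be told apart from differences between the mice or the dissections. Both comparisons use the same HFD-veh library, so a value that is off in that library moves both in opposite directions. Ratios are on log2(FPKM + 0.1), over genes that reached 1 FPKM in either library, and a gene is called when it differs over 2-fold.

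With the high-fat diet 1 member of the 8 that passed the filter was called in WAT, where 9.11% of all genes were called. It was Hk3, with a log2 ratio of 1.86. In liver 1 of 5 was called, against 5.12% of all genes, and it was Pklr, with a log2 ratio of 2.11. In muscle 1 of 6 was called, against 4.11% of all genes, and it was Pklr at 1.23 FPKM against a library listed at 0, a gap described above beside the liver markers. With the liver level taken off, Pklr was under 1 FPKM in both muscle libraries, so it failed the filter and this call was lost. Its log2 ratio was then still 2.59. In BAT none of 7 was called, against 4.29% of all genes. The median log2 ratio of the members was 0.23 in WAT, -0.11 in BAT, 0.24 in liver and -0.09 in muscle, beside 0.03, -0.04, 0.04 and 0.03 over all genes.

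With narciclasine on the high-fat diet, no member was called in WAT (0 of 8, 1.7% of all genes), BAT (0 of 7, 1.96%) or liver (0 of 5, 2.31%). In muscle the only call among 7 members was Pklr, listed at 0 in HFD-ncls and at 1.23 FPKM in HFD-veh, against 3.8% of all genes. With the liver level taken off, Pklr was at 0.503 FPKM in HFD-veh, under the filter, and this call was lost too. Its log2 ratio was then still -2.59. The largest ratios among members that were not called were 0.78 for Ldhb in muscle, -0.59 for Ldha in BAT and 0.52 for Hk3 in WAT. Pklr in liver had a ratio of 0.42. Pfkm in BAT had a ratio of -0.46, and of 0.00 with the muscle level taken off at the marker median. The median over the members was 0.19 in WAT, -0.28 in BAT, 0.11 in liver and -0.01 in muscle, and over all genes 0.04, -0.02, 0.02 and 0.04.

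**Figure D3:**
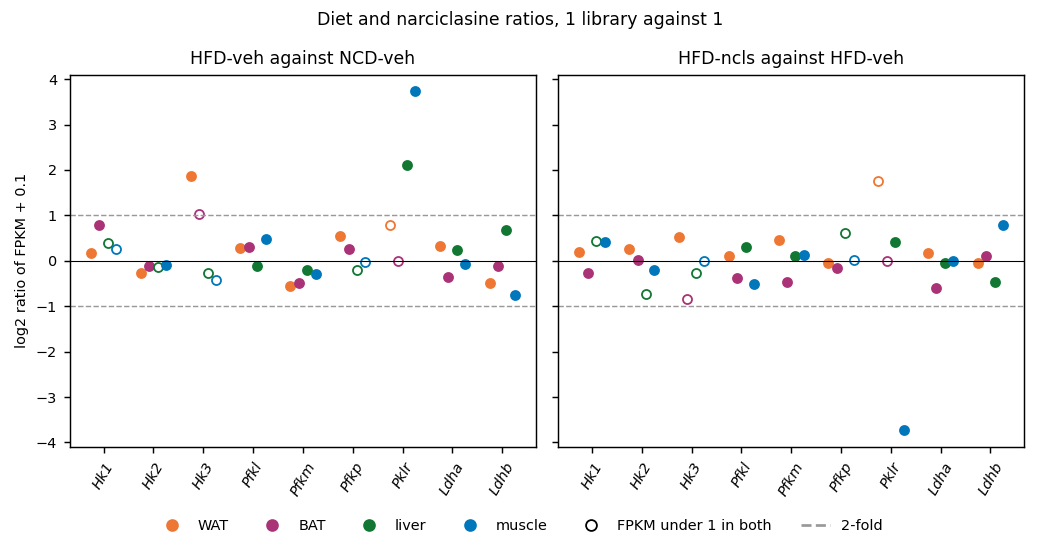
Log2 ratio of FPKM + 0.1 for each member in each organ, HFD-veh against NCD-veh on the left and HFD-ncls against HFD-veh on the right, with 1 library on each side of a ratio, open circles where the FPKM was under 1 in both libraries and dashed lines at 2-fold. Filled points beyond the lines on the left are Hk3 in WAT (1.86), Pklr in liver (2.11) and Pklr in muscle (a library listed at 0 lies behind that ratio), and on the right only Pklr in muscle.

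Hk3 in WAT stood beside myeloid genes. Cd68, a lysosomal protein of macrophages, was at 49.5, 198 and 222 FPKM in WAT. Itgax, the integrin CD11c of dendritic cells and of macrophages in obese fat, was at 2.79, 20.4 and 22.7 FPKM, and Mpeg1, a pore-forming protein of macrophages, at 15.2, 52.0 and 66.3 FPKM. Of the 10 macrophage and myeloid markers, all 10 passed the filter, 9 were higher in HFD-veh than in NCD-veh WAT, 4 of them over 2-fold, and Cd14 was lower (15.3 and 11.98 FPKM). The median log2 diet ratio of the 10 markers was 0.64, beside 1.86 for Hk3. Their summed level was 681, 984 and 1233 FPKM. In HFD-ncls all 10 were above HFD-veh, none over 2-fold. Of the other members, all but Pklr, which was under 1 FPKM in WAT, were within 1.49-fold over the 3 WAT libraries. The part of myeloid RNA in the WAT level of Hk3 was not tested.

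Among regulators of glycolysis in liver, Pfkfb1, which makes and breaks the activator of phosphofructokinase, was at 14.0, 26.3 and 35.2 FPKM. Mlxipl, which encodes ChREBP, was at 61.1, 60.6 and 74.6 FPKM. Pfkl and Pfkm of the same livers stayed within 1.23-fold and 1.15-fold. With the muscle level taken off, Pfkm in liver was at 4.93, 3.64 and 4.64 FPKM and its diet ratio went from -0.20 to -0.43, while Pklr kept its values to 3 digits.

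Ldhb in muscle was lowest in HFD-veh, as were the slow-twitch fibre genes. All 7 slow-twitch markers passed the filter and were lower in HFD-veh than in NCD-veh muscle, 6 of them over 2-fold. Myh7, the slow myosin heavy chain, was at 13.4, 5.11 and 11.7 FPKM, and Myl2, the slow regulatory light chain, at 10.5, 0.735 and 16.2 FPKM. Their sum was 51.7, 11.8 and 56.7 FPKM. Of the 13 muscle markers measured in muscle, none was over 2-fold apart between these libraries. The same HFD-veh library also differed from NCD-veh in the markers of other organs: all 15 liver markers were over 2-fold higher, and of 8 adipocyte markers 7 were higher, 4 of them over 2-fold, with summed levels of 348, 395 and 387 FPKM over the 3 muscle libraries. With the liver level taken off, Ldhb in HFD-veh muscle was again 18.7 FPKM. The part of slow fibres or of fat in the Ldhb value was not tested.

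**Figure D4:**
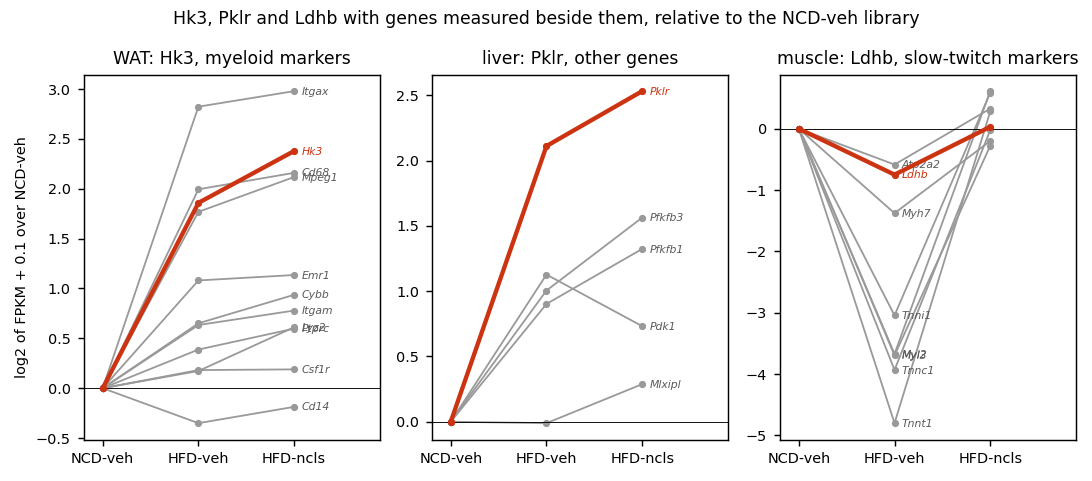
Log2 of FPKM + 0.1 over the NCD-veh library of the same organ, for Hk3 with 10 myeloid markers in WAT (left), Pklr with 4 regulators of glycolysis in liver (middle) and Ldhb with 7 slow-twitch markers in muscle (right), the member in red and each line 1 gene over the 3 libraries. Hk3 lies among Cd68, Mpeg1 and Itgax and above the other myeloid markers. Pklr lies above Pfkfb1, Pfkfb3, Pdk1 and Mlxipl in both HFD libraries, and Ldhb dips in HFD-veh with all 7 slow-twitch lines.

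In BAT the muscle-type genes of glycolysis ran down from NCD-veh to HFD-veh to HFD-ncls together with the 14 listed skeletal muscle markers. Ckm was at 248, 120 and 17.7 FPKM there, and the summed level of 13 muscle markers was 2255, 930.1 and 135 FPKM. All 14 muscle markers were lower in HFD-veh than in NCD-veh BAT and lower again in HFD-ncls. The slow-twitch markers differed: 5 of 7 were higher in HFD-veh than in NCD-veh BAT, and their sum was 40.3, 46.0 and 16.0 FPKM. Tnni1, of that list, reached 4.64 FPKM in BAT and 2.18 FPKM in muscle. A single share of the quadriceps level thus does not describe all muscle genes in BAT, which limits every muscle level taken off there. Pgam2, the muscle phosphoglycerate mutase, was at 23.8, 13.5 and 1.78 FPKM in BAT, which is 1.18%, 0.765% and 0.109% of its muscle level. Eno3, the muscle enolase, was at 61.0, 27.2 and 9.55 FPKM, or 1.80%, 1.11% and 0.368%. Pfkm stood at 2.60%, 2.25% and 1.48% of its muscle level, above the marker medians in all 3 libraries.

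When the muscle level was taken off at the marker median, Pfkm in BAT was 9.56, 15.3 and 15.3 FPKM, and its diet ratio went from -0.49 to 0.67 on the log2 scale. The NCD-veh value, and with it the sign of this ratio, depended on the share taken off. At the lower and upper quartiles of the markers Pfkm in NCD-veh BAT was 14.1 and 5.82 FPKM and the diet ratio 0.25 and 1.33. At the share of Pgam2 it was 17.6 FPKM and the ratio -0.22, so its direction is not settled here. Ldha in BAT was then 203, 163 and 110.2 FPKM, close to the values as deposited, since it stood at 30.9%, 25.3% and 16.8% of its muscle level. Hk2 in BAT was then 22.6, 21.4 and 22.0 FPKM. Pgam2 and Eno3 came to 0 in NCD-veh BAT, so no ratio is given for them.

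**Figure D5:**
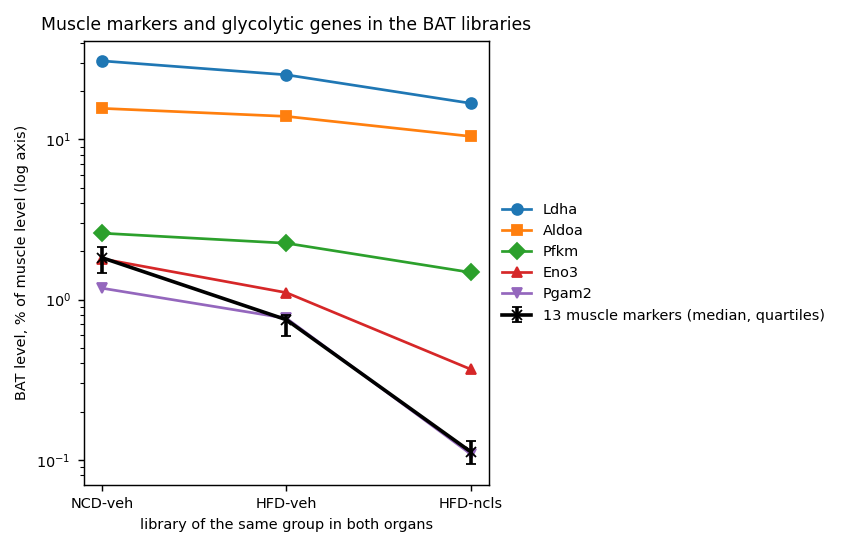
Level in each BAT library as a percent of the muscle library of the same group (log axis), for 5 glycolytic genes and for the median of 13 skeletal muscle markers with its quartiles (black). The markers run from 1.83% to 0.112%, Pgam2 follows them, Pfkm stays above them at 2.60% to 1.48%, and Ldha lies between 30.9% and 16.8%.

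Glycolysis was followed in 18 other genes, of which 11 or 12 passed the filter in each contrast. With the diet, 1 of 11 was called in WAT, 1 of 11 in BAT, 1 of 12 in liver and 0 of 11 in muscle. With narciclasine, 0 of 11 were called in WAT, 3 of 11 in BAT, 1 of 12 in liver and 0 of 11 in muscle. The shares of all genes called are those given above. Tpi1, the triose phosphate isomerase, was at 119, 262 and 224 FPKM in WAT, a log2 ratio of 1.14 for the diet. Eno1, the broadly expressed enolase, was at 55.0, 56.3 and 26.1 FPKM in BAT, a ratio of -1.11 for narciclasine. In muscle Eno1 was lower than in any BAT library, at 4.82 to 7.53 FPKM. The remaining calls were Eno3 in BAT with the diet, Eno3 and Pgam2 in BAT with narciclasine, and Pgam2 in liver in both contrasts, all in organs where libraries held muscle markers. Pgam2 in liver was at 0.223, 1.05 and 0.223 FPKM.

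Some of these steps also had 1 leading gene per organ. Eno3 made up 99.7% to 99.8% of enolase and Pgam2 99.7% to 99.8% of phosphoglycerate mutase in muscle, while Eno1 and Pgam1 led in liver and WAT. Aldoa, the aldolase of muscle, was the highest gene of the list in muscle, at 10722 to 11787 FPKM, and was at 1122 to 1841 in BAT, 513 to 952 in WAT and 60.1 to 68.6 in liver. Gapdh was at 1578 to 2023 FPKM in muscle and 157 to 573 FPKM elsewhere, so it was not even over these organs. Gapdh also has processed copies, so its level carries the uncertainty given for Ldha. Gpi1, the phosphoglucose isomerase, was at 237 to 303 FPKM in muscle, 137 to 201 in BAT, 58.3 to 66.5 in WAT and 36.7 to 51.8 in liver. Pgk1, the phosphoglycerate kinase, was at 217 to 356 FPKM in muscle and 36.7 to 147 FPKM elsewhere. Bpgm, which diverts an intermediate to bisphosphoglycerate, was at 41.9 to 47.4 FPKM in muscle and 4.66 to 9.27 elsewhere. Aldoc, the aldolase of brain, was at 5.50 to 8.02 FPKM in liver and at most 0.694 elsewhere, and Eno2, the neuronal enolase, reached 1.96 FPKM at most, in WAT. The germ cell forms Pgk2, Gapdhs, Ldhc and Ldhal6b and the hexokinase Hkdc1 were under 1 FPKM in all 12 libraries.

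Among 14 regulators of glycolytic flux, the bifunctional enzymes that set the phosphofructokinase activator differed by organ. Pfkfb3 was the leading one in WAT (196, 211 and 170.2 FPKM), BAT (60.4, 51.6 and 68.9 FPKM) and muscle (143, 45.6 and 95.4 FPKM), and Pfkfb1 in liver. Pfkfb3 in liver was at 1.41, 2.94 and 4.38 FPKM. Its log2 diet ratio in liver was 1.01, and 0.99 with the muscle level taken off, where its call was lost. Pdk4, the kinase that shuts off pyruvate dehydrogenase in fasting, was at 404, 122 and 415 FPKM in muscle, and Pfkfb3 there was also lowest in HFD-veh. Both rest on the HFD-veh muscle library, with its higher liver and adipocyte markers and lower slow-twitch markers, and with the liver level taken off Pdk4 was again at 122 FPKM and Pfkfb3 at 45.6 FPKM in it. Pfkfb4 in WAT was at 3.66, 11.2 and 11.8 FPKM, and Pdk1 in liver was at 7.76, 17.1 and 12.96 FPKM. Over the whole list the highest middle library was that of Pfkfb3 in WAT, Pdk4 in BAT and muscle and Mlxipl in liver. Pfkfb3, Pfkfb4, Pdk1 and Pdk4 gave the calls of the list: 1 of 13 in WAT, 0 of 11 in BAT, 2 of 11 in liver and 2 of 12 in muscle for the diet, and 2 of 12 in muscle for narciclasine with none in the other organs. Of all genes, 9.11%, 4.29%, 5.12% and 4.11% were called in WAT, BAT, liver and muscle for the diet. For narciclasine the shares of all genes were 1.7%, 1.96%, 2.31% and 3.8%.

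The genes whose pattern over the 12 libraries was nearest to each member were ranked by the root mean square difference of centred log2(FPKM + 0.1), over 13648 genes. For Hk3 they were Slc15a3 (0.25), Adam23 (0.36) and AF251705 (0.38), and for Hk1 they were Dip2a (0.23), 9830001H06Rik (0.23) and Srgn (0.25). Hk2 was nearest to Gys1, the muscle glycogen synthase (0.49), then Vldlr (0.52) and Trim16 (0.55). Pfkm was nearest to Dusp13 (0.38), Mlip (0.41) and Lrrc2 (0.43), Pfkl to Ifi27l1 (0.22), Uck1 (0.41) and Adra1a (0.42), and Pfkp to Epb4.1l1 (0.31), Cldn15 (0.33) and Spaca1 (0.40). Pklr was nearest to Fabp2 (0.39), Ces2e (0.43) and Igfbp1 (0.44). Ldha was nearest to Gm13315 (0.17), Mpi, the mannose phosphate isomerase (0.25), and Fam53a (0.26). Ldhb was nearest to Acss1, the mitochondrial acetyl-CoA synthetase (0.29), then Ybx2 (0.43) and P2rx5 (0.48). For scale, the members themselves varied around their own means by 0.86 (Ldha) to 4.04 (Pklr) on this measure.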

How the data were processed

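TopHat, Cufflinks and the mm9 build are named in the submitters' processing notes. The authors quantified RefSeq transcripts as FPKM, and the deposited table has 1 column per library and 22276 symbols. The sources used here state no scaling beyond FPKM. All 12 columns were mapped to an organ and a group by their names. Computations used Python 3.11.15, numpy 2.4.6, pandas 2.3.3 and matplotlib 3.10.9. A pseudocount of 0.1, an FPKM minimum of 1 and a 2-fold threshold were applied, with no test, since each group has 1 library per organ. Symbols without a value in a library (86 in at least 1) were left out there. Depth was estimated from genes with a single transcript over 2000 bases, as the number of fragments at which low FPKM values came nearest to whole fragments (78.0% to 84.0% within 0.15). The code for the calls, the organ pairs and the marker share was checked on simulated data with planted changes and 1 planted muscle share. In NCD-veh BAT single muscle markers ran from 1.11% to 5.32% of muscle, so that check cannot show how well taking off 1 share works there. Genes were named by list: all members, the other glycolytic genes by organ level, regulators that were called or led an organ, and the 3 nearest genes of each member. The members and lists were chosen with earlier results of these data known. Promoters came from RefSeq (GRCm38.p6), placed on mm9 by exact match, and gene positions from GENCODE M1. Alternatives covered pseudocount, filter, scaling, threshold, the enzyme sums and each library left out. Taking off muscle or liver levels, at the marker median or another share, was added after seeing the data. Results for 2 genes of the glycolytic list and for a wider hexokinase sum are not reported here.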

Additional observations from a re-analysis of the deposited data

Results flagged for a closer look

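The values in this part were picked out because the same contrast ran over 1.4-fold up in one organ and over 1.4-fold down in another, at an FPKM of at least 1. With 1 library per group the difference between organs was not tested for any of them, and all ratios are log2. Among the members this was seen for Ldhb alone, which with the diet was at 0.69 in liver, where it was near 1 FPKM, -0.49 in WAT and -0.75 in muscle. Pgam2 was at 1.83 in liver, in a library with muscle markers, and -0.82 in BAT with the diet. Pfkfb1 was at 0.90 in liver, -0.76 in BAT and -0.60 in muscle with the diet. Pfkfb3 was at 1.01 in liver and -1.65 in muscle with the diet. Pdk1 was at 1.13 in liver, -0.64 in WAT and -0.56 in BAT with the diet. Pdk4 was at 0.83 in WAT, -0.51 in liver and -1.73 in muscle with the diet. With narciclasine, Eno1 was at 0.63 in muscle and -1.11 in BAT, and Pdp2, a phosphatase that reactivates pyruvate dehydrogenase, was at 0.74 in muscle and -0.83 in liver.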

How the results depend on the processing

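No paired analysis was possible because each group has 1 library per organ. Calls of members with the diet (3 over the 4 organs) came to 10 at 1.4-fold and to 2 with muscle and liver levels taken off, which ends that of Pklr in muscle, and those with narciclasine (1) to 2 with no filter, 0 at an FPKM of at least 5, 5 at 1.4-fold and 0 with those levels taken off. Pklr in muscle is lost there through the FPKM filter, with log2 ratios of 2.59 and -2.59 left. Taking off the muscle level of BAT at the upper quartile of the markers in place of their median adds Pfkm in BAT with the diet. Calls among the other glycolytic genes came from 3 with the diet to 5 with no filter and 9 at 1.4-fold, and from 4 with narciclasine to 7 with no filter, 8 at 1.4-fold and 1 with those levels taken off. No share of all genes is given for these settings. The counts therefore show only how far the calls depend on the setting, and say nothing about these genes against the whole table. With the muscle level taken off at the marker median, the middle Pfkl share went from 59.3% to 61.6% in liver and from 71.6% to 76.96% in BAT. Leaving out 1 library at a time gave 36 to 38 member and organ pairs apart (36 with all libraries), 50.2% to 58.2% for Hk2 in WAT and 56.6% to 64.2% for Ldhb in BAT. Rescaling by the median ratio moved 17 of the 36 middle levels of a member in an organ by more than the SD of that organ's 3 libraries. Pseudocounts of 1 and 0.01 and centring the median ratio kept each count of calls within 1.5 times. Low values limit Hk3 in muscle, Pklr outside liver and all 3 hexokinases in liver.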
